A study of Mus musculus with 16 samples.

Results

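Cortical bone of mechanically loaded tibiae was compared between mice labelled NT3-Cre+, written NT3 here, and mice labelled Ctrl. The comparison took 8 of the 16 libraries of the series, 4 NT3 and 4 Ctrl, each from the right tibia of a separate mouse and chosen by the group label alone. All mice were male and 16 weeks old. On each of 9 days the right tibia of every mouse was compressed along its axis for 1200 cycles at 4 Hz, and tissue was collected 4 hours after the final session. The force was 8.7 N for Ctrl mice and 10.0 N for NT3 mice, set by the submitters to reach -2000 microstrain in both, so genotype and applied force cannot be told apart. The muscle was stripped off and the marrow spun out before RNA was made from the remaining bone segment, and the mean RNA integrity number stated for the series was 5.4. The series title states that the kinase NIK was activated conditionally in cells of the bone-forming lineage. The labels used here name neither the NT3 allele nor the Cre driver, the strain or what the Ctrl mice carried.

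NIK (NF-kB inducing kinase), encoded by Map3k14, is the kinase of the noncanonical NF-kB pathway. Receptors of the tumour necrosis factor family stop its constant breakdown by TRAF proteins, and stabilised NIK then leads to cleavage of the p100 precursor, the product of Nfkb2. The resulting p52 enters the nucleus with RelB and turns on genes for chemokines, cytokines and lymphoid organisation. In bone the pathway is best known from osteoclasts.

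Each value is the number of sequenced fragments counted to a named row of the annotation. The 4 Ctrl libraries held 852831 to 1064391 fragments and the 4 NT3 libraries 758394 to 911686, so 1 CPM, a count per 1e+06 fragments after library scaling, is close to 1 fragment. Many rows overlap, in their exons, a gene of the opposite strand. This held for 1093 (88.0%) of the 1242 placed rows with a mean of 100 fragments or more, and for 15.3% of the remaining placed rows. The files do not say from which strand a fragment came. A row is therefore given with the gene opposite it, meaning one on the other strand whose exons share at least 20 bases with its own, and its value may belong to either. Rows were tested with edgeR's quasi-likelihood F test, and called means a Benjamini-Hochberg adjusted p below 0.05 over the 6080 rows tested. Gene lists were chosen with earlier results of these data known. A list's share of called rows, set beside that of all rows, is therefore a description and not a test. In bulk RNA, fewer cells of a type and less RNA per cell cannot be told apart.

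In loaded NT3 bone, rows opposite genes of NF-kB signalling, chemokines, antigen presentation and B lymphocytes were called higher than in Ctrl, many of them by more than 2-fold. Some rows of, or opposite, genes of collagen modification and TGF-beta signalling were called lower. So was 1 row opposite a gene of mineralisation, which also lies opposite Zfp652. Of the 6080 rows, 161 (2.65%) were called, 80 higher (1.32%) and 81 lower (1.33%) in NT3, and 808 had an unadjusted p below 0.05. The median log2 fold change was 1.02 over the higher rows, -0.95 over the lower rows and -0.0016 over all rows tested. At least 2-fold changes made up 45 of the higher and 37 of the lower rows. All 4 NT3 libraries lay above all 4 Ctrl libraries in 75 of the 80 higher rows, against 3.93% of all rows tested. They lay below in 71 of the 81 lower rows, against 3.67% of all rows. Choosing the rows by a test on the same libraries itself brings such separation, so these counts add no support. Scaled by total counts only, the split was 101 higher and 62 lower.

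The calls depended on 2 covariates. With the mean of 25 marrow rows as a covariate 80 rows were called, 62 of them among the 161, and with the mice split into 2 sets by animal number 64 rows, 60 of them among the 161. In both fits all 161 rows kept the sign of their difference. Of the 99 calls lost with the marrow covariate, 41 had a log2 difference as large or larger, 49 one smaller by up to 1.5 times and 9 one smaller by over 1.5 times. Of the 101 lost with the animal number covariate these were 17, 83 and 1. The lower set by number held Ctrl replicates 1, 2 and 3 and NT3 replicate 1. The higher set held Ctrl replicate 4 and NT3 replicates 2, 3 and 4. This covariate thus partly follows genotype, and the 2 cannot be fully told apart. The rows Psd, Zmynd15, Art3, Il7, Tbc1d17, Dexi, Gm29439, Tesk1, Rfc2, D030025P21Rik, Gm37804, Phf20l1 and Gm17140 were called under every alternative in which they were tested. For other called rows, an adjusted p of 0.05 or more under a covariate, without 1 library or in a fit of all 16 libraries is given in the paragraph of the row, with the log2 value where it moved by over 1.5 times.

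**Figure D1:**
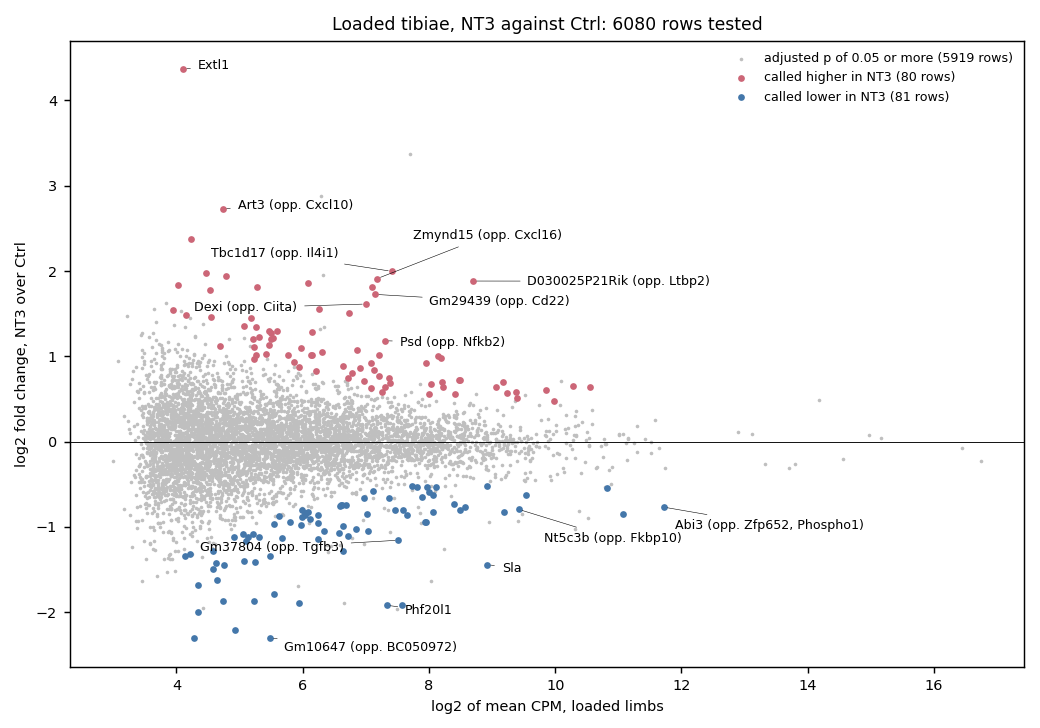
Log2 fold change of NT3 over Ctrl in loaded tibiae (vertical axis) against the log2 of the mean CPM of the 8 libraries (horizontal axis). Each point is 1 of 6080 rows, red where called higher (80), blue where called lower (81) and grey otherwise, and labels give the row and a gene opposite it.

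The row opposite Nfkb2 was more than 2-fold higher in NT3. This was the Psd row (chr19:46312087-46327156), named for a GTPase exchange factor gene, which shares 299 bases with the end of Nfkb2, all in its 3′ UTR. It read 104, 96.8, 95.5 and 90.4 CPM in the 4 Ctrl libraries and 201, 198, 225 and 254 CPM in the 4 NT3 libraries. No NT3 library came near the Ctrl range, and the difference passed the test (log2 1.18, SE 0.15, adjusted p = 4.08e-06). The row named Nfkb2 itself, also opposite AC114539.1, held 17.9, 8.89, 13.1 and 24.8 CPM in Ctrl and 8.62, 12.6, 15.8 and 29.4 CPM in NT3. Its groups overlapped throughout (log2 0.02, SE 0.43, adjusted p = 0.995). Gm16175, which shares 161 bases with exons of Bcl3, encoding a nuclear partner of p52, rose, reading 20.3, 19.8, 7.85 and 28.2 CPM in Ctrl and 42, 50.3, 61.9 and 58.9 CPM in NT3 with no overlap (log2 1.45, SE 0.30, adjusted p = 0.00336). For Gm16175, the adjusted p was 0.157 with the marrow covariate and 0.0728 with the animal number covariate. Among the genes of the noncanonical pathway, 1 of 1 tested row by opposite gene was called higher and 0 of 1 by own name. The wider NF-kB family list had 1 of 5 rows called higher by opposite gene (median log2 0.25) and 0 of 3 by own name (median 0.26), beside 1.32% of all rows. The largest uncalled difference in that list was that of Bcl10, an adaptor of lymphocyte receptor signalling, at 0.00 to 12.4 CPM in Ctrl and 5.27 to 17.2 CPM in NT3 (log2 1.47, adjusted p = 0.265). The kinase gene itself had too few fragments to check the genotype: Map3k14 held 1 to 9 per library and, with no filter on low counts, did not pass (log2 0.62, edgeR adjusted p = 0.753). Relb and Traf2 held at most 2 fragments and Traf3 none.

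Both tested rows opposite a chemokine gene were called higher, against 1.32% of all rows. The Zmynd15 row (chr11:70459433-70466202) shares 552 bases with the 5′ end of Cxcl16, a chemokine that is also a scavenger receptor. It read 56, 52.4, 49.7 and 84.7 CPM in Ctrl against 269, 207, 186 and 254 CPM in NT3, and every NT3 value was more than 2-fold above the highest Ctrl value (log2 1.91, SE 0.18, adjusted p = 1.14e-08). The Art3 row (chr5:92331827-92414628) shares 133 bases with the 3′ UTR of Cxcl10, an interferon-induced chemokine that draws T cells. It was low in Ctrl, at 14.3, 5.93, 2.62 and 4.52 CPM, and reached 36.6, 43.3, 68.5 and 37.9 CPM in NT3, with no overlap (log2 2.73, SE 0.40, adjusted p = 2.57e-05). Il7, the cytokine on which developing lymphocytes depend, was the called row among 3 tested by own name. The Il7 row, which lies opposite Gm16685, read 2.39, 6.92, 9.16 and 5.65 CPM in Ctrl and 49.6, 15.4, 26.3 and 35.1 CPM in NT3 (log2 2.38, SE 0.44, adjusted p = 9.18e-04). Its groups did not overlap, and the NT3 values were the more widely spread. The Cxcl16 row read 14.7 to 25 CPM in Ctrl and 18.2 to 32.1 CPM in NT3, with overlapping groups (log2 0.23, adjusted p = 0.868). Of 32 chemokine and cytokine genes listed, 26 had own rows with fewer than 10 fragments in each library, and nothing can be said about these.

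The promoters of these genes are shown because the kappa-B motif is the DNA element that NF-kB dimers bind. RefSeq windows (GRCm38.p6) from 250 bases before to 50 after a start site were searched on both strands for the 10-base kappa-B consensus, matches being allowed to overlap. Of 17 genes looked up, 9 were in the table and 3 held a match: Nfkb2, Cxcl10 and Bcl3. The 250 bases before the first Nfkb2 start site (chr19:46304487-46304736, plus strand) and before that of Cxcl10 (chr5:92348890-92349139, minus strand) are given from 5′ to 3′, with capitals marking the matches.
Nfkb2: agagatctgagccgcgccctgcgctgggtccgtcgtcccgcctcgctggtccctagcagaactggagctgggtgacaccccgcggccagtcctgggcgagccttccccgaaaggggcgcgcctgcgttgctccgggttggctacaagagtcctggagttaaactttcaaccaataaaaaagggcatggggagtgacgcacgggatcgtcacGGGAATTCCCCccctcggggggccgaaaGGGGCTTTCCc
Cxcl10: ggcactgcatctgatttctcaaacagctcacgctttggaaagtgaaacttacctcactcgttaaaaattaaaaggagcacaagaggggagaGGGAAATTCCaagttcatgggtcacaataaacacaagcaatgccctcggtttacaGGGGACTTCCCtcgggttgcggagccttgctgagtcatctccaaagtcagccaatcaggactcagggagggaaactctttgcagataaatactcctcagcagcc
The Nfkb2 matches begin at positions -39, -38 and -11 and those of Cxcl10 at -159, -104 and -103, counted from the start site, so each promoter holds a pair of overlapping matches and 1 that stands alone. The other 2 start sites of Nfkb2 in the table also had matches in their windows. In Bcl3 the match, GGGAAGTCCC, begins at position 3 of the transcript. The windows of Il4i1, Ltbp2, Cd22, Cd72, Psd and Dexi held no match to these letters. Over all 27025 genes of the table, 9.55% had a match, and over the 3864 genes opposite any tested row, or of the row itself where nothing lay opposite, 12.1%. The share was 23.5% (12 of 51) for called higher rows and 19.6% (10 of 51) for called lower rows, so it lay above the share for tested rows in both directions.

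Several rows opposite genes of antigen presentation were higher in loaded NT3 bone. By opposite gene, 4 of 9 tested rows of this list were called higher and none lower (median log2 0.31), against 1.32% of all rows called higher. The Tbc1d17 row (chr7:44834623-44849079) shares 3423 bases with Il4i1, an amino acid oxidase secreted by antigen-presenting cells, and 89 with Akt1s1. Its level was 82.3, 67.2, 51 and 71.2 CPM in Ctrl and 221, 254, 346 and 269 CPM in NT3, with a wide gap between the groups (log2 2.00, SE 0.17, adjusted p = 1.28e-09). The Dexi row (chr16:10502531-10543054) shares 329 bases with Ciita, the master regulator of class II genes. It stood at 63.2, 72.1, 53.6 and 62.1 CPM in Ctrl and at 182, 170.5, 191 and 229.9 CPM in NT3, again without overlap (log2 1.61, SE 0.17, adjusted p = 1.00e-07). BC051537, opposite H2-Oa, whose product restrains peptide loading in B cells, and H2-Pa, rose, reading 12.8 to 39.5 CPM in Ctrl and 50.5 to 78.3 CPM in NT3 (log2 1.22, SE 0.28, adjusted p = 0.0102). Gm20496, opposite the immunoproteasome gene Psmb8 and the peptide transporter gene Tap2, rose, reading 303 to 475 CPM in Ctrl and 536 to 742 CPM in NT3 (log2 0.64, SE 0.14, adjusted p = 0.00692). Outside the list, Gm11131, opposite the class I gene H2-Q4, also rose, reading 209.5 to 315 CPM in Ctrl and 354 to 490.5 CPM in NT3 (log2 0.73, SE 0.14, adjusted p = 0.00173).

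The other rows of this kind did not pass. Gm15821, also opposite Tap2, read 249.9 to 336 CPM in Ctrl and 347 to 409 CPM in NT3 (log2 0.31, adjusted p = 0.247). Gm17334, opposite the interferon regulator gene Irf1, read 72.1 to 100.2 CPM in Ctrl and 86.9 to 155 CPM in NT3 (log2 0.62, adjusted p = 0.0794). Of 4 interferon rows by opposite gene 0 were called (median 0.31). At an unadjusted p below 0.05, 2 of them were higher, beside 6.55% of all rows. The rows named Il4i1 (-0.20) and Ciita (-0.45) had negative log2 differences and adjusted p of 0.741 and 0.636. The call of BC051537 was lost in some fits, as were those of Gm20496 and Gm11131. For BC051537, the adjusted p was 0.169 with the marrow covariate, 0.160 with the animal number covariate and 0.0586 without Ctrl replicate 2. For Gm20496, the adjusted p was 0.135 with the marrow covariate and 0.0997 with the animal number covariate. For Gm11131, the adjusted p was 0.0683 with the animal number covariate.

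Rows opposite genes of B lymphocytes were higher as a group. By opposite gene, 6 of 7 tested rows were called higher and the 7 log2 differences were all above 0 (median 1.02), beside 1.32% of all rows. The list was chosen with earlier results of these data known, so this share is not a test of the group. Gm29439 (chr7:30872733-30873333) lies almost wholly over coding exons of Cd22, a receptor that dampens B cell activation, sharing 479 bases. It read 64.4, 64.2, 65.4 and 68.9 CPM in Ctrl, a tight group, and 156, 186, 265 and 266 CPM in NT3 (log2 1.73, SE 0.18, adjusted p = 8.81e-08). The Tesk1 row (chr4:43441939-43448064) shares 1423 bases with Cd72, another inhibitory B cell receptor gene. It read 79.9, 41.5, 45.8 and 74.5 CPM in Ctrl and 179, 197, 280.4 and 193 CPM in NT3, and these groups did not overlap either (log2 1.81, SE 0.20, adjusted p = 3.03e-07). Rfc2, a row lying opposite Lat2, which encodes an adaptor of lymphocytes, stood at 213, 153, 213 and 210.1 CPM in Ctrl and 378, 393, 399 and 386 CPM in NT3 (log2 0.98, SE 0.13, adjusted p = 9.85e-06).

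Both tested rows opposite Pax5, the transcription factor that fixes B cell identity, were called. 5730488B01Rik rose, reading 16.7 to 35 CPM in Ctrl and 40.9 to 89.7 CPM in NT3 (log2 1.20, SE 0.28, adjusted p = 0.00929) and Gm12462 read 26.2 to 42.9 CPM in Ctrl and 48.5 to 104 CPM in NT3 (log2 1.02, SE 0.25, adjusted p = 0.0174). Of the exon bases of these rows, 636 (27.5%) for 5730488B01Rik and 125 (4.09%) for Gm12462 are shared with Pax5. The Mast4 row shares 182 bases, 0.563% of its exons, with Cd180, a Toll-like receptor relative of B cells, and 214 with 1700099I09Rik. Mast4 read 83.5, 86, 85 and 83.6 CPM in Ctrl and 135, 102, 171 and 210.3 CPM in NT3 (log2 0.87, SE 0.19, adjusted p = 0.00536). The remaining row, 4930538E20Rik opposite Bcl11a, a factor of early lymphoid cells, read 32.7 to 61 CPM in Ctrl and 58.7 to 101 CPM in NT3 and did not pass (log2 0.74, adjusted p = 0.0925). Also called were 3 rows of the immunoglobulin lambda region of chromosome 16. They were Iglv3, a variable segment (log2 1.09, adjusted p = 0.00472), Gm42870 (log2 1.51, adjusted p = 3.29e-05) and Gm43388 (log2 1.98, adjusted p = 0.00343).

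Among the 7 tested rows that carry the names of listed B cell genes, 0 were called (median log2 0.19), the largest difference being that of Fcer2a, the low-affinity IgE receptor, at 14.3 to 18.1 CPM in Ctrl and 23.7 to 33.5 CPM in NT3 (log2 0.88, adjusted p = 0.189). The 33 own rows of the list summed to 437 to 513 per 1e+06 fragments in Ctrl and 452 to 557 in NT3, whereas the 10 rows opposite listed genes summed to 426 to 549.6 in Ctrl and 1003 to 1332 in NT3. Of the defining markers, Cd79b was at 0 in all 8 libraries, Ms4a1 had 0 to 6 fragments and Cd79a 9 to 15. The calls of the Pax5 rows 5730488B01Rik and Gm12462 were lost in some fits. For 5730488B01Rik, the adjusted p was 0.0816 with the marrow covariate, 0.233 with the animal number covariate and 0.0696 without NT3 replicate 4. For Gm12462, the adjusted p was 0.118 with the marrow covariate, 0.335 with the animal number covariate, 0.0736 with all 16 libraries fitted in 4 groups and 0.0573 to 0.109 without Ctrl replicate 2 or 3 or NT3 replicate 4. So were those of Mast4 and Iglv3, but not those of Gm29439, Tesk1 and Rfc2. For Mast4, the adjusted p was 0.0601 with the marrow covariate and 0.0728 with the animal number covariate. For Iglv3, the adjusted p was 0.0710 with the marrow covariate and 0.05002 with the animal number covariate.

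Markers of other blood and vessel cells gave few calls, and granulocyte rows gave 1 in each direction. BE692007 and Ms4a6c, the latter encoding a membrane protein of myeloid cells, overlap on opposite strands and were both higher. Ms4a6c read 24.9 to 54.9 CPM in Ctrl and 88 to 161 CPM in NT3 (log2 1.55, SE 0.24, adjusted p = 1.08e-04). BE692007 read 519.8 to 878 CPM in Ctrl and 1025 to 1235 CPM in NT3 (log2 0.61, SE 0.15, adjusted p = 0.0127). The Tctn1 row, opposite Gm15481 and the proton channel gene Hvcn1 of phagocytes and B cells, read 1454, 820.2, 1135 and 1262 CPM in Ctrl and 1569.7, 1944, 2085 and 1681 CPM in NT3 (log2 0.64, SE 0.15, adjusted p = 0.0134). It was 1 of 4 granulocyte rows called by opposite gene (median log2 0.26), beside 1.32% of all rows called higher. By own name 1 of 5 was called and that 1 was lower (median -0.13), beside 1.33% of all rows called lower. The lower row was Mmp8, a neutrophil collagenase, with a log2 of -0.99 (adjusted p = 0.00626). For Mmp8, the adjusted p was 0.294 with the marrow covariate and 0.0694 with the animal number covariate. The Mmp8 and Tctn1 rows are themselves among the 25 marrow rows, so that covariate holds part of the values tested. Gm11505, opposite the granule enzyme gene Mpo, was not called (log2 0.25, adjusted p = 0.601). The Pou2f1 row, opposite Cd247, the zeta chain of the T cell receptor, read 15.5, 6.92, 6.54 and 7.91 CPM in Ctrl and 21.5, 25.2, 15.8 and 42.1 CPM in NT3 (log2 1.49, SE 0.42, adjusted p = 0.0476). It was close to the threshold and lost the call in some fits. For Pou2f1, the adjusted p was 0.0543 with the muscle covariate, 0.221 with the animal number covariate and 0.0691 to 0.230 without Ctrl replicate 2, 3 or 4 or NT3 replicate 2 or 4. Nt5dc2, opposite the sinusoidal endothelial receptor gene Stab1, rose, reading 93 to 129.5 CPM in Ctrl and 143 to 184 CPM in NT3 (log2 0.63, SE 0.16, adjusted p = 0.0244). It was 1 of 6 endothelial rows by opposite gene (median log2 0.05), beside the same 1.32%. Erythroid rows gave 0 of 5 calls by opposite gene (median -0.12) and 0 of 5 by own name (median -0.44). Calls were lost in some fits for BE692007, Tctn1 and Nt5dc2. For BE692007, the adjusted p was 0.0726 with the marrow covariate, 0.153 with the animal number covariate and 0.0548 without NT3 replicate 3. For Tctn1, the adjusted p was 0.164 with the marrow covariate, 0.222 with the animal number covariate and 0.0504 to 0.0644 without Ctrl replicate 3 or NT3 replicate 3. For Nt5dc2, the adjusted p was 0.137 with the marrow covariate, 0.0546 with the muscle covariate, 0.0882 with the animal number covariate and 0.0644 to 0.0936 without Ctrl replicate 1 or 4 or NT3 replicate 3 or 4. The mean log2 CPM of 25 marrow rows was 6.78 ± 0.073 in Ctrl and 6.66 ± 0.069 in NT3 (SD, n = 4; two-sided exact permutation p = 0.0857). Adjusted over 5 technical values p was 0.214, and 4 against 4 cannot give a p below 0.0286. The part of residual marrow in these differences was not tested beyond the covariate fit.

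**Figure D2:**
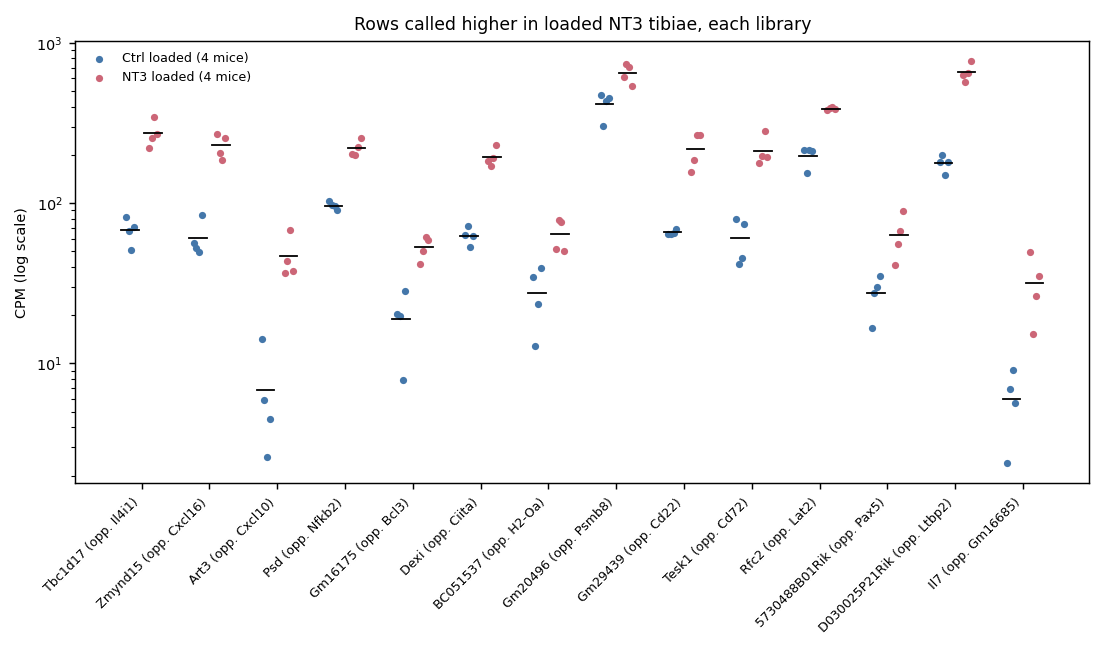
CPM on a log axis of 14 rows called higher in NT3, 1 point per library, with Ctrl in blue, NT3 in red and black bars for the mean of 4 mice. In each row the lowest NT3 point lies above the highest Ctrl point.

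The row with the smallest p of the comparison was D030025P21Rik (chr12:84875769-84879755). It shares 764 bases with the 5′ end of Ltbp2, which encodes a matrix protein of elastic microfibrils. Levels were 180.1, 199, 149 and 181 CPM in Ctrl and 633, 566, 650.3 and 771 CPM in NT3, with more than a 2-fold gap between the groups (log2 1.88, SE 0.14, adjusted p = 4.14e-11). The row named Ltbp2 held 9.16 to 24.8 CPM in Ctrl and 9.21 to 23.8 CPM in NT3 and did not pass (log2 -0.08, adjusted p = 0.973). Rows opposite Tgm2, the tissue transglutaminase that crosslinks matrix proteins, were higher in both cases. Rprd1b, also opposite 2010009K17Rik, rose, reading 209 to 243 CPM in Ctrl and 319 to 399 CPM in NT3 (log2 0.70, SE 0.13, adjusted p = 9.74e-04) and Gm20412, named after its values had been seen, read 501 to 633 CPM in Ctrl and 744 to 857 CPM in NT3 (log2 0.51, SE 0.13, adjusted p = 0.0211). For Rprd1b, the adjusted p was 0.0942 with the marrow covariate. For Gm20412, the adjusted p was 0.418 with the marrow covariate, 0.256 with the animal number covariate, 0.0552 with all 16 libraries fitted in 4 groups and 0.0920 to 0.0990 without Ctrl replicate 1 or 3 or NT3 replicate 3. Gm11651, opposite the angiotensin-converting enzyme gene Ace, rose, reading 147 to 187 CPM in Ctrl and 217 to 424 CPM in NT3 (log2 0.92, SE 0.18, adjusted p = 0.00258), and Gm15674, opposite Gm15675 and Cd55b, a complement decay-accelerating factor gene, read 164 to 218 CPM in Ctrl and 327 to 416 CPM in NT3 (log2 1.00, SE 0.14, adjusted p = 6.92e-06). For Gm11651, the adjusted p was 0.363 with the marrow covariate (log2 0.57) and 0.0850 with the animal number covariate. Oraov1, which lies opposite Ccnd1 (cyclin D1), had overlapping groups of 450.0 to 749 CPM in Ctrl and 712 to 1139.8 CPM in NT3 and missed the threshold (log2 0.54, adjusted p = 0.0600). Oraov1 was called with the muscle covariate (adjusted p = 0.0225), with a mean of at least 20 fragments required (0.0469) and by the DESeq2 Wald test (0.0481). It was also called without Ctrl replicate 4 (log2 0.67, adjusted p = 0.0240) or NT3 replicate 3 (log2 0.63, adjusted p = 0.0300), where the difference was larger.

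Several higher rows shared no 20 exon bases with a gene of the other strand. For some, a protein-coding gene of the other strand still overlapped the row or lay within 10 kb. These were Nxpe4 (Nxpe2), Lrrc18 (Wdfy4), Hsd11b1 (Lamb3) and Extl1 (Slc30a2). Nxpe4 rose, reading 25.7 to 36.6 CPM in Ctrl and 74.1 to 154 CPM in NT3 (log2 1.85, SE 0.24, adjusted p = 4.21e-06), Prune2 read 40.6 to 106 CPM in Ctrl and 148 to 183 CPM in NT3 (log2 1.08, SE 0.20, adjusted p = 0.00111), and Lrrc18 read 74.1 to 118 CPM in Ctrl and 151 to 217 CPM in NT3 (log2 1.02, SE 0.18, adjusted p = 3.70e-04). For Prune2, the adjusted p was 0.0953 with the marrow covariate. Hsd11b1, the enzyme that regenerates active glucocorticoid in tissue, read 10.5 to 29.8 CPM in Ctrl and 33.5 to 61.9 CPM in NT3 (log2 1.36, SE 0.31, adjusted p = 0.00929). For Hsd11b1, the adjusted p was 0.302 with the marrow covariate and 0.0548 without NT3 replicate 3. Extl1, a glycosyltransferase gene of heparan sulfate synthesis named after its values had been seen, had the largest fold change of the higher rows. It read 2.39, 0.00, 2.62 and 1.13 CPM in Ctrl and 20.5, 50.3, 32.9 and 28 CPM in NT3 (adjusted p = 4.00e-06). A fitted log2 of 4.37 on such low Ctrl values depends on the model and only its direction should be read.

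In loaded NT3 bone 2 rows opposite genes that modify collagen were lower. So was 1 row opposite both Zfp652 and a gene that starts mineral. The Nt5c3b row (chr11:100422321-100441808) shares 193 coding bases with Fkbp10, a collagen chaperone of the endoplasmic reticulum whose loss causes brittle bone. It read 939.7, 707, 857 and 972 CPM in Ctrl and 599, 592, 415 and 399.6 CPM in NT3, with every NT3 library below every Ctrl library (log2 -0.79, SE 0.15, adjusted p = 9.74e-04). Gm38391 (chr9:92538801-92542869) shares 346 bases with the 5′ end of Plod2, the lysyl hydroxylase that sets the type of collagen crosslink. It read 670.2, 578, 921 and 795 CPM in Ctrl and 460.0, 523, 375 and 321 CPM in NT3, also without overlap (log2 -0.82, SE 0.15, adjusted p = 0.00111). These were 2 of 7 collagen processing rows by opposite gene (median log2 -0.23), beside 1.33% of all rows called lower, and 0 of 9 were called by own name (median -0.04). The Abi3 row (chr11:95830074-95842476) shares 2913 bases with the 3′ UTR of Zfp652, 1708 with Phospho1 and 234 with Gngt2. Phospho1 encodes a phosphatase that starts mineral inside matrix vesicles. The Abi3 row read 4211, 3127, 4930.4 and 4742 CPM in Ctrl and 2926, 3426, 1760.0 and 1889 CPM in NT3 (log2 -0.77, SE 0.19, adjusted p = 0.0261). NT3 replicate 2 lay within the Ctrl range of that row. It was 1 of 6 mineral and phosphate rows called lower by opposite gene (median log2 -0.41), beside 1.33% of all rows, and 0 of 5 were called by own name (median 0.03). The row named Phospho1 had a positive difference (log2 0.42, adjusted p = 0.385) and the row named Plod2 a negative one (log2 -1.25, adjusted p = 0.225), and neither passed. The calls were lost in some fits for Nt5c3b, Gm38391 and Abi3. For Nt5c3b, the adjusted p was 0.218 with the marrow covariate. For Gm38391, the adjusted p was 0.272 with the marrow covariate. For Abi3, the adjusted p was 0.664 with the marrow covariate (log2 -0.41), 0.137 with the animal number covariate, 0.256 with all 16 libraries fitted in 4 groups and 0.0529 to 0.197 without Ctrl replicate 1, 3 or 4 or NT3 replicate 3 or 4.

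Collagen rows leaned the same way with 1 call. Col11a1, a fibrillar collagen chain that controls fibril diameter, was lower, at 78.7, 43.5, 47.1 and 89.2 CPM in Ctrl and 34.5, 18.2, 22.4 and 25.2 CPM in NT3 (log2 -1.34, SE 0.28, adjusted p = 0.00340). For Col11a1, the adjusted p was 0.310 with the marrow covariate. Of 16 collagen rows by own name 13 had a log2 difference below 0 (median -0.53), 10 had an unadjusted p below 0.05 with the lower value in NT3, and Col11a1 was called. Over all 6080 rows, 410 (6.74%) had such a p with the lower value in NT3 and 1.33% were called lower. The type I chains read 337, 284, 334 and 486 CPM in Ctrl and 205, 347, 215 and 241 CPM in NT3 for Col1a1 (log2 -0.52, adjusted p = 0.113). Col1a2 stood at 248, 152, 234 and 223 CPM in Ctrl and 154, 177, 82.9 and 125 CPM in NT3 (log2 -0.66, adjusted p = 0.0561), with NT3 replicate 2 inside the Ctrl range. Without NT3 replicate 2 both chains passed (adjusted p = 0.0101 and 0.0146). That library lay inside the Ctrl range for both chains, so leaving it out widens the difference and adds no support. Gm15419, opposite the basement membrane chain gene Col4a2, was lower, reading 126 to 169 CPM in Ctrl and 71.1 to 116 CPM in NT3 (log2 -0.66, SE 0.18, adjusted p = 0.0298), and lost the call in many fits. For Gm15419, the adjusted p was 0.765 with the marrow covariate (log2 -0.27), 0.0545 with the muscle covariate, 0.112 with the animal number covariate, 0.0686 with all 16 libraries fitted in 4 groups and 0.0710 to 0.157 without Ctrl replicate 1, 3 or 4 or NT3 replicate 2 or 3.

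Genes of bone cells gave few calls. By own name 2 of 14 osteoblast rows were lower (median log2 -0.50), beside 1.33% of all rows. Of these, Bmp3, an antagonist within the BMP family, read 31 to 49.7 CPM in Ctrl and 14 to 30.3 CPM in NT3 (log2 -1.11, SE 0.31, adjusted p = 0.0477). It was near the threshold, and the call was lost in many fits. For Bmp3, the adjusted p was 0.0738 with the marrow covariate, 0.181 with the animal number covariate, 0.0899 with all 16 libraries fitted in 4 groups and 0.0619 to 0.170 without Ctrl replicate 2, 3 or 4 or NT3 replicate 1, 2 or 4. By opposite gene 2 of 7 were lower, again beside 1.33%, the Abi3 and Nt5c3b rows, and the 7 log2 differences were all below 0 (median -0.44). Ibsp, the bone sialoprotein gene, read 280.2, 125, 241 and 189 CPM in Ctrl and 129, 155, 111 and 79.9 CPM in NT3 (log2 -0.81, adjusted p = 0.0790), and it was called without Ctrl replicate 2 (adjusted p = 0.00133) or NT3 replicate 2 (0.0263). These held the lowest Ctrl and the highest NT3 value of Ibsp, so leaving either out widens the difference and adds no support. Osteopontin, encoded by Spp1 and named after its values had been seen, had a positive difference, at 2.62 to 14.3 CPM in Ctrl and 14 to 30.7 CPM in NT3 (log2 1.63, adjusted p = 0.0599). Spp1 was called with all 16 libraries fitted in 4 groups (adjusted p = 0.0351) and when scaled by total counts only (0.0480). It was also called without Ctrl replicate 1 (log2 2.23, adjusted p = 0.0181) or NT3 replicate 4 (log2 1.78, adjusted p = 0.0428), where the difference was larger. All 7 osteocyte rows by own name had log2 differences below 0 (median -0.64) and 0 were called. Sost, the Wnt inhibitor that osteocytes secrete, read 23.9, 44.5, 37.9 and 14.7 CPM in Ctrl and 4.31, 12.6, 11.8 and 19.6 CPM in NT3 (log2 -1.35, adjusted p = 0.0756), and Dmp1 and Mepe, osteocyte matrix proteins, had log2 differences of -0.39 (adjusted p = 0.374) and -0.64 (adjusted p = 0.222). Bglap held at most 4 fragments and Tnfsf11, which encodes RANKL, none, so these bone markers were not assessed.

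Rows of the ligand gene Tgfb2, and rows opposite Tgfb2 and Tgfb3, were lower. Gm37804 (chr12:86069173-86069779), which shares 163 coding bases with Tgfb3, read 249.2, 307, 216 and 241 CPM in Ctrl and 166, 95, 121 and 70.1 CPM in NT3, with no overlap (log2 -1.16, SE 0.19, adjusted p = 3.58e-04). For Tgfb2 both the row of the gene and the row opposite it were called: Gm29491, over its 5′ end, read 137, 140.3, 161 and 136 CPM in Ctrl and 39.9, 96.4, 85.6 and 47.7 CPM in NT3 (log2 -1.10, SE 0.21, adjusted p = 0.00191). For Gm29491, the adjusted p was 0.150 with all 16 libraries fitted in 4 groups. The Tgfb2 row read 21.5, 34.6, 28.8 and 21.5 CPM in Ctrl and 10.8, 11.2, 9.21 and 11.2 CPM in NT3 (log2 -1.32, SE 0.37, adjusted p = 0.0466), and lost the call under each covariate (0.0944 to 0.256), with all 16 libraries fitted in 4 groups (0.0602) and when any 1 library was left out (adjusted p from 0.0537 to 0.196 without 1 library). Ctgf, a matricellular target of TGF-beta opposite Gm15270, fell, reading 51.3 to 91.9 CPM in Ctrl and 27.6 to 51.7 CPM in NT3 (log2 -0.94, SE 0.25, adjusted p = 0.0280). For Ctgf, the adjusted p was 0.156 with the marrow covariate, 0.0906 with the muscle covariate, 0.0593 with the animal number covariate and 0.0663 to 0.147 without Ctrl replicate 2, 3 or 4 or NT3 replicate 1 or 3. Over the TGF-beta and BMP list, 3 of 8 rows were called lower by own name (median log2 -0.68) and 2 of 8 by opposite gene (median -0.59), none higher, beside 1.33% of all rows called lower. In the Wnt list the receptor gene Fzd2 fell, reading 44.1, 52.4, 47.1 and 23.7 CPM in Ctrl and 6.46, 18.2, 15.8 and 5.61 CPM in NT3 (log2 -1.87, SE 0.37, adjusted p = 0.00198), 1 of 6 rows by own name beside the same 1.33%. For Fzd2, the adjusted p was 0.0561 with the animal number covariate. Gm26771, opposite Sfrp2, a secreted Wnt modulator, fell, reading 26.2 to 71.6 CPM in Ctrl and 9.81 to 27.6 CPM in NT3 (log2 -1.42, SE 0.32, adjusted p = 0.00701), 1 of 8 by opposite gene (median -0.23). For Gm26771, the adjusted p was 0.0520 with the animal number covariate.

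Other called lower rows lay opposite genes of varied function, which were not tested as a group. Gm16159, over a coding exon of the receptor gene Fgfr1, read 432, 547, 453 and 488 CPM in Ctrl and 307, 292, 282 and 247 CPM in NT3 (log2 -0.77, SE 0.13, adjusted p = 2.79e-04). Gm16277, opposite the GDNF co-receptor gene Gfra1, fell, reading 94.9 to 192 CPM in Ctrl and 54.9 to 98.7 CPM in NT3 (log2 -1.02, SE 0.21, adjusted p = 0.00284), and Gm42802, opposite Pdgfra, a receptor of mesenchymal cells, and named after its values had been seen, read 71.2 to 86.3 CPM in Ctrl and 40.8 to 50.3 CPM in NT3 (log2 -0.80, SE 0.21, adjusted p = 0.0271). For Gm16277, the adjusted p was 0.0904 with the animal number covariate. For Gm42802, the adjusted p was 0.468 with the marrow covariate, 0.0983 with the animal number covariate, 0.0541 with all 16 libraries fitted in 4 groups and 0.0571 to 0.0974 without Ctrl replicate 1, 3 or 4 or NT3 replicate 1 or 3. Gm11149, opposite the cell adhesion gene Ncam1, fell, reading 405 to 508 CPM in Ctrl and 189 to 311 CPM in NT3 (log2 -0.80, SE 0.14, adjusted p = 5.61e-04), and 4932441J04Rik opposite the protocadherin gene Pcdh7 read 2217 to 3272 CPM in Ctrl and 1149.7 to 1963 CPM in NT3 (log2 -0.85, SE 0.16, adjusted p = 9.74e-04). Gm13441, opposite the laminin chain gene Lamc3, fell, reading 131 to 247 CPM in Ctrl and 64.5 to 108 CPM in NT3 (log2 -1.05, SE 0.21, adjusted p = 0.00279), and Prss23os, opposite the secreted protease gene Prss23, read 317 to 481 CPM in Ctrl and 212 to 303 CPM in NT3 (log2 -0.73, SE 0.15, adjusted p = 0.00286). For Gm13441, the adjusted p was 0.0520 with the animal number covariate and 0.0567 with all 16 libraries fitted in 4 groups. For Prss23os, the adjusted p was 0.0729 with the marrow covariate and 0.0736 with all 16 libraries fitted in 4 groups. D630008O14Rik, opposite the survival gene Bcl2, was lower (log2 -0.59, SE 0.14, adjusted p = 0.0148), as was Nr1d1, a repressor of the body clock opposite Thra (log2 -0.74, adjusted p = 0.0156). D630008O14Rik was 1 of 5 adhesion and survival rows by opposite gene, beside 1.33% of all rows called lower. The other 4 had positive differences and were not called (median of the 5 rows 0.33). For D630008O14Rik, the adjusted p was 0.238 with the animal number covariate and 0.0660 to 0.0856 without Ctrl replicate 2 or 3. For Nr1d1, the adjusted p was 0.137 with the marrow covariate, 0.142 with the animal number covariate and 0.0593 to 0.0623 without Ctrl replicate 2 or NT3 replicate 2. Gm27786, which lies wholly over an exon of the imprinted RNA H19 and was named after its values had been seen, fell, reading 26.2 to 44.5 CPM in Ctrl and 2.63 to 21 CPM in NT3 (log2 -1.62, SE 0.38, adjusted p = 0.0101). For Gm27786, the adjusted p was 0.171 with the marrow covariate, 0.0654 with the animal number covariate and 0.0504 without NT3 replicate 3.

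The 4 neighbouring rows Phf20l1, Tg, Gm17140 and Sla on chromosome 15 were lower together, the largest group of called rows within 1 Mb of each other. Tg is the thyroglobulin gene, Gm17140 lies opposite one of its coding exons, Sla encodes an adaptor of lymphocyte receptor signalling from within the Tg interval, and Phf20l1 a chromatin reader. The Sla row (chr15:66780819-66831829) read 596, 987, 714 and 536 CPM in Ctrl and 248.9, 291, 292 and 215 CPM in NT3 (log2 -1.44, SE 0.16, adjusted p = 4.86e-07). For Sla, the adjusted p was 0.115 with all 16 libraries fitted in 4 groups. Phf20l1 (chr15:66577560-66647976) read 192, 356, 293 and 179.6 CPM in Ctrl and 75.4, 61.5, 81.6 and 50.5 CPM in NT3 (log2 -1.92, SE 0.21, adjusted p = 9.25e-07). In both rows the groups were far apart. Gm17140 fell, reading 202 to 381 CPM in Ctrl and 51.9 to 102 CPM in NT3 (log2 -1.91, SE 0.20, adjusted p = 2.00e-06) and the Tg row, where the highest NT3 value lay inside the Ctrl range, read 70.03 to 175 CPM in Ctrl and 52.7 to 74.1 CPM in NT3 (log2 -1.07, SE 0.22, adjusted p = 0.00336). For Tg, the adjusted p was 0.116 with the marrow covariate and 0.192 with the animal number covariate. The 4 uncalled rows tested within the same stretch, Wisp1 (log2 -1.19, adjusted p = 0.218), Ndrg1 (-0.35, 0.827), Gm17035 (-0.49, 0.121) and Gm2895 (-0.63, 0.0904), also had negative differences. Elsewhere, lower rows of small p included Gm10647, opposite BC050972, at 62 to 86.3 CPM in Ctrl and 9.21 to 27.9 CPM in NT3 (log2 -2.30, SE 0.30, adjusted p = 4.21e-06), and Ddx4, a helicase gene of germ cells, at 55.3 to 81.1 CPM in Ctrl and 16.2 to 27.9 CPM in NT3 (log2 -1.79, SE 0.26, adjusted p = 2.95e-05).

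Skeletal muscle rows varied widely between mice. All 11 tested rows opposite muscle genes had log2 differences below 0 (median -0.92) and 0 were called. Over all 6080 rows tested, 3052 were below 0. By own name, 5 of 9 tested muscle rows were above 0 and 4 below (median 0.05), and 0 were called. Rabep2, opposite Atp2a1, the calcium pump of fast muscle, ran at 896, 3984, 339 and 2396 CPM in Ctrl and 1394, 1263, 374 and 1084 CPM in NT3 (log2 -0.89, adjusted p = 0.759). The rows opposite muscle genes summed to 1516 to 15750 per 1e+06 fragments in Ctrl and 1393 to 5514 in NT3, while the own rows of Acta1 and Ckm held at most 3 and 12 fragments. With the mean of muscle rows as a covariate 133 rows were called, 125 of them among the 161.

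**Figure D3:**
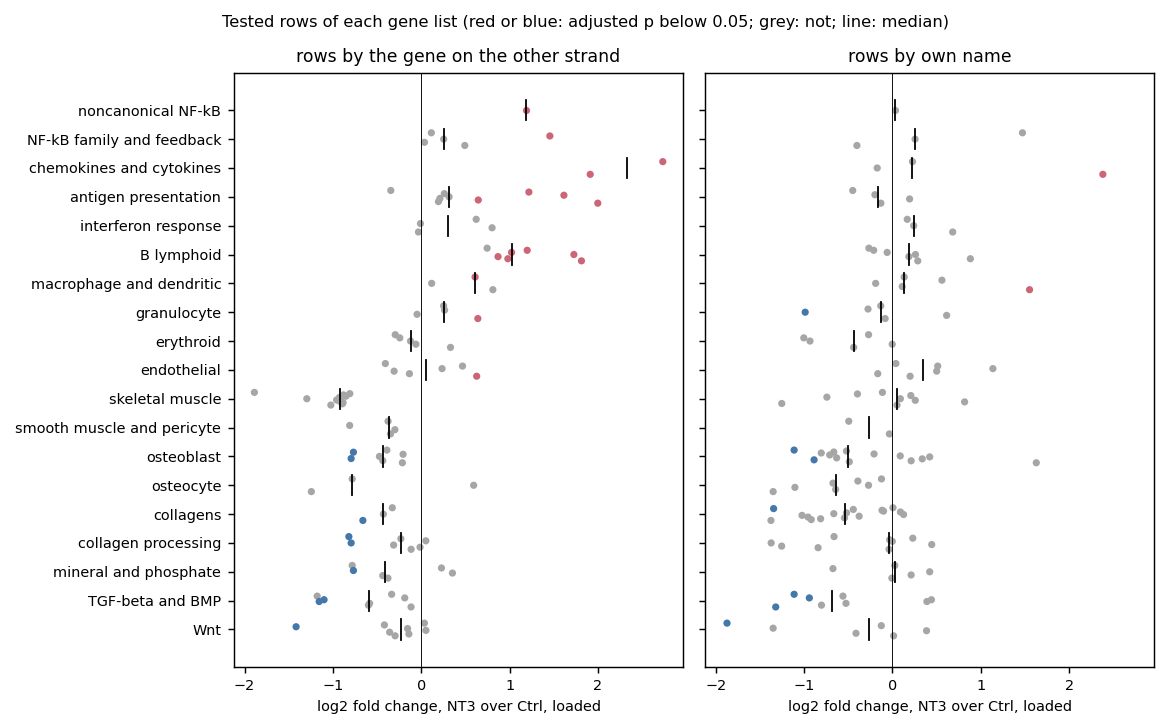
Log2 fold change of NT3 over Ctrl in loaded tibiae for the tested rows of 19 gene lists, placed by the gene on the other strand (left) and by the name of the row (right). Red and blue points were called higher and lower, grey points were not, and black lines are medians, for example 1.02 for B lymphoid rows by opposite gene against 0.19 by own name.

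Whether the genotype difference after loading departed from that in the non-loaded left tibiae of the same mice was tested as an interaction over 16 libraries, with a block for mouse. Of 7192 rows, 10 (0.139%) were called, all with a more negative NT3 difference after loading, and 0 with a more positive one. In an unadjusted test 472 rows had p below 0.05. The Abi3 row, opposite Phospho1, had an interaction of -1.06 (SE 0.16, adjusted p = 1.61e-04): mean levels were 792 ± 215 CPM for Ctrl and 966 ± 358 for NT3 without loading, but 4252 ± 809.9 and 2500.3 ± 809 CPM after loading (SD, n = 4). Gm20444, opposite C1qtnf5 and Mfrp, a complement-like secreted protein and a frizzled-related membrane protein, gave -1.61 (SE 0.24, adjusted p = 1.61e-04), with means of 86.4 ± 27.6 and 137 ± 51.8 CPM without loading and 328 ± 24.5 and 170.0 ± 49.4 CPM with it. The Nt5c3b row opposite Fkbp10 gave -0.92 (SE 0.17, adjusted p = 0.00213) and Gm26840, opposite the matrix gene Vwa1, -1.63 (SE 0.29, adjusted p = 0.00213). These 4 rows were also called lower in the loaded comparison, where each lost the call in at least 1 fit, and in all 10 rows NT3 had the higher mean in non-loaded limbs and the lower mean in loaded limbs. For Gm20444, the adjusted p was 0.0541 with all 16 libraries fitted in 4 groups. For Gm26840, the adjusted p was 0.376 with the marrow covariate, 0.143 with the animal number covariate and 0.0542 to 0.0930 without Ctrl replicate 1 or NT3 replicate 3 or 4.

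The other 6 rows called for the interaction did not pass in loaded limbs alone. Both rows opposite the fibrillar collagen gene Col5a1 were among them, with -1.10 (SE 0.18, adjusted p = 6.07e-04) for 2810430I11Rik and -1.07 (SE 0.19, adjusted p = 0.00213) for Gm13372. Ibsp gave -1.10 (SE 0.22, adjusted p = 0.0115), at 105 ± 33.2 CPM for Ctrl and 128 ± 24.6 for NT3 without loading against 209 ± 67.4 and 119 ± 31.7 CPM after loading. Col1a2 gave -1.13 (SE 0.25, adjusted p = 0.0459), at 65.1 ± 31.9 and 85.4 ± 23.8 CPM without loading and 214 ± 42.7 and 135 ± 40.8 CPM with it. Prmt7, opposite Smpd3, a sphingomyelinase gene needed for normal mineral, gave -0.88 (SE 0.20, adjusted p = 0.0459), and Chn1os3, opposite Chn1 and named after its values had been seen, -1.11 (SE 0.23, adjusted p = 0.0178). Without the block for mouse 0 rows were called and 335 had an unadjusted p below 0.05.

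The non-loaded limbs separated the genotypes for part of the rows called in loaded limbs. Among the 80 higher rows, 24 had all non-loaded NT3 libraries above all non-loaded Ctrl libraries, against 2.25% of all rows tested, and among the 81 lower rows 20 had them all below, against 1.81%. Both limbs came from the same mice, so this is not independent of the loaded result. The Tbc1d17 row read 82 ± 17 CPM for Ctrl and 300.2 ± 53.5 for NT3 without loading, D030025P21Rik 168 ± 45.3 and 629.8 ± 124, and Zmynd15 56.6 ± 7.50 and 195 ± 63.2, with interactions of 0.12, -0.04 and 0.17 (adjusted p = 0.973, 0.992 and 0.964). The Phf20l1, Sla and Gm16159 rows were likewise lower in both limbs, with interactions of 0.04, -0.05 and -0.03 (adjusted p = 0.992, 0.992 and 0.992). Tesk1 and Gm29439, the rows opposite Cd72 and Cd22, had larger differences in loaded limbs, but interactions of 0.76 (adjusted p = 0.285) and 0.56 (adjusted p = 0.645) did not pass. Over the called rows, 73 of 80 interactions were positive and 75 of 81 negative, a lean that choosing the rows in the loaded limbs also brings.

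**Figure D4:**
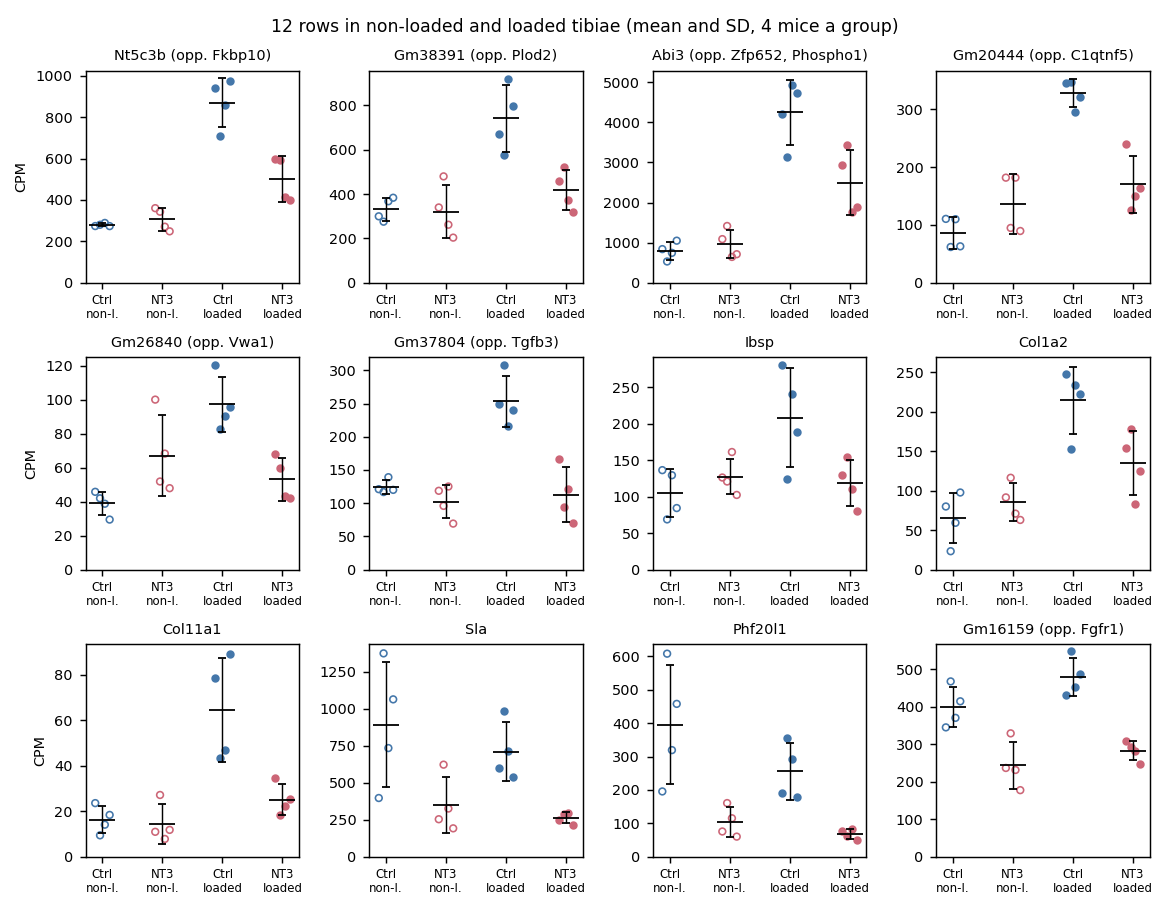
CPM, from 0, of 12 rows in non-loaded (open circles) and loaded (filled circles) tibiae of Ctrl (blue) and NT3 (red), 1 point per library, with mean and SD of 4 mice. In the Nt5c3b, Abi3, Gm20444, Gm26840, Ibsp and Col1a2 panels the NT3 mean is below the Ctrl mean after loading and above it without, while Sla, Phf20l1 and Gm16159 are lower in NT3 in both limbs.

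Called rows and the rows of the genes opposite them were compared directly, since the files name both. Of the 161 called rows 111 lay opposite a gene, 54 of 80 higher (67.5%) and 57 of 81 lower (70.4%), against 58.3% of all rows tested. The opposite row was itself tested for 58 of these, making 68 pairs. The opposite row was itself called in 10 of the 68 pairs. It had the same sign as the called row in 48 pairs. In 47 its log2 difference was within 0.5 of 0, and the median size was 0.87 for the called row and 0.32 for the row opposite. Uncalled rows opposite that differed the same way included Ncam1 at -0.71 beside Gm11149 at -0.80, Plod2 at -1.25 beside Gm38391 at -0.82 and Lat2 at 0.29 beside Rfc2 at 0.98. Those near 0 or of the other sign included Cd180 at -0.21 beside Mast4, Hvcn1 at -0.28 beside Tctn1 and Stab1 at -0.17 beside Nt5dc2. The Psd and Nfkb2 rows gave 1.18 and 0.02, Tesk1 and Cd72 1.81 and -0.06, Dexi and Ciita 1.61 and -0.45, and Tbc1d17 and Il4i1 2.00 and -0.20. Both rows of a pair were called in 5 pairs of genes: Tgfb2 and Gm29491, Tg and Gm17140, Lamc3 and Gm13441, and BE692007 and Ms4a6c changed in the same direction, whereas Abi3 was lower and Zfp652 higher. Of the 19 alternative fits, Lamc3 was called in 6 (adjusted p up to 0.340) and Zfp652 in 11 (adjusted p up to 0.390). For each pair the deposited counts do not show which of the genes produced the fragments.

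**Figure D5:**
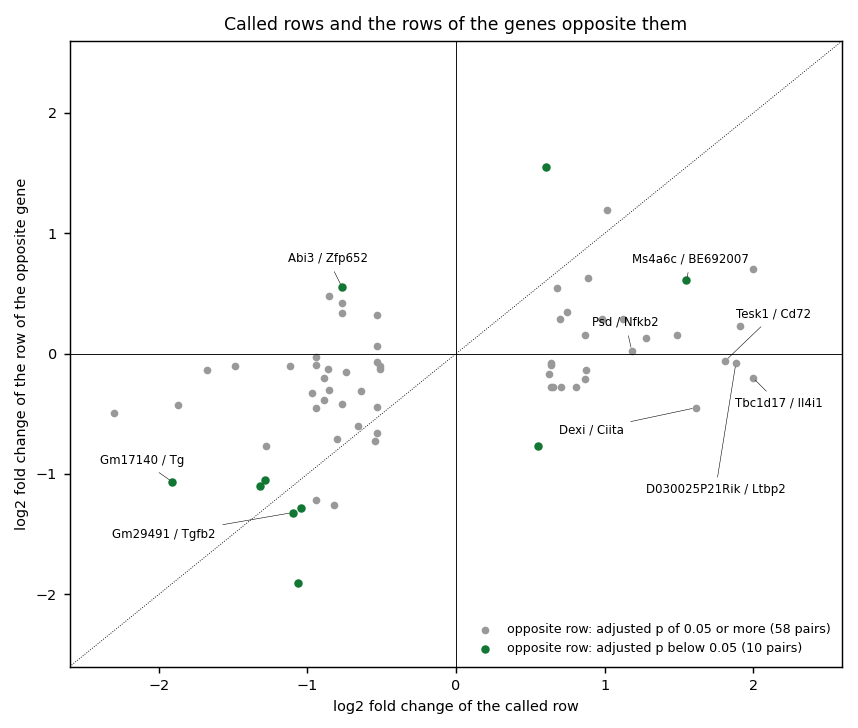
Log2 fold change of a called row (horizontal axis) and of the row of the gene opposite it (vertical axis) for 68 pairs in loaded tibiae, with the dotted line marking equal values. Green points are the 10 pairs in which both rows were called, and 47 of the 68 points lie within 0.5 of 0 on the vertical axis.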

How the data were processed

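The 8 loaded libraries, 4 a group, were compared, and the 8 non-loaded libraries of the same mice entered the interaction test and the common scaling of printed CPM. Each mouse gave 1 library a limb, so replicates are animals. Libraries were made from ribosomal-RNA-depleted total RNA with random primers and read as single ends of 75 bases, per the labels' protocols. The deposited values are raw fragment counts per named row, 47517 rows a file. The submitters' processing notes name mm10, STAR 2.4.2a, featureCounts 1.4.6 of Subread and DESeq2. Neither the release of the annotation nor whether counting used strand was given in the sources used here.

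Rows were placed by symbol on GENCODE M21 (GRCm38). Rows passing filterByExpr (minimum count 10) were scaled by TMM and tested with edgeR 4.0.16 (quasi-likelihood, robust; R 4.3.3, limma 3.58.1, statmod 1.5.0) by genotype, with Benjamini-Hochberg adjustment. The interaction of genotype and limb was fitted with a block for mouse. In deviations from the group means, limbs of 1 mouse correlated at 0.0433 to 0.167, and for Ctrl mouse 4 the correlation with another mouse was higher (0.135). No libraries were duplicates. Covariates were mean log2 CPM values over marrow or muscle rows, with a pseudocount of 0.5, computed from the deposited counts. Printed SD values are over mice. A printed SE is the size of the log2 difference divided by the square root of its F value in the edgeR fit.

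Members and lists (30 in all) were chosen with earlier results of these data known. Named were, per direction, the 25 called rows of smallest p whose mean was 20 fragments or more, with all NT3 libraries on 1 side of the Ctrl mean, every called list member, up to 3 abundant uncalled members a list, a fixed set of pathway and bone genes, and the 5 interaction rows of smallest p. Rows of genes opposite a named row are given for some of them. A called osteoblast row that this rule names and a B cell marker are not reported here. Bcl10, Ciita, Fcer2a, Ltbp2, Gm20412, Extl1, Tg, Gm42802, Spp1, Chn1os3, Iglv3, Gm43388 and Gm27786 were named after their values had been seen, as were the uncalled neighbours of Tg.

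The tests were tested on simulated data: with 200 of 5814 rows changed in the loaded comparison, 48% of 2-fold and 85% of 4-fold changes were called, with 10 unchanged rows. Of 6889 rows in the interaction, the shares were 22% and 71%, with 2 unchanged rows. Alternatives were other scalings, no filter or a stricter one, DESeq2 1.42.0, left-out ribosomal rows, covariates, all 16 libraries in 4 groups and leaving out each mouse.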

Additional observations from a re-analysis of the deposited data

Results flagged for a closer look

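In 240 groups of 4 libraries, over rows and sample measures, 5 had 1 library set apart from the other 3 by more than the 95% critical value of Dixon's ratio, which chance gives in about 1 of 20 groups. The lowest NT3 value of the Bcl10 row was 5.27 CPM, with the next at 15.4 CPM. The lowest Ctrl value of the Rfc2 row, opposite Lat2, was 153 CPM, with the next at 210.1 CPM. The highest Ctrl value of the Pou2f1 row, opposite Cd247, was 15.5 CPM, with the next at 7.91 CPM. The highest NT3 value of the Prune2 row was 183 CPM, with the next at 153 CPM. The mean log2 CPM of muscle rows was 4.99 in 1 NT3 library, with the next at 6.31.

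The genotype difference in loaded limbs departed from that in non-loaded limbs in 10 rows by the interaction term of edgeR, with adjusted p below 0.05. The departures, in log2 units and all negative, were -1.06 for Abi3 (opposite Zfp652, Phospho1 and Gngt2), -1.61 for Gm20444 (opposite C1qtnf5 and Mfrp), -1.63 for Gm26840 (opposite Vwa1), -0.92 for Nt5c3b (opposite Fkbp10) and -0.88 for Prmt7 (opposite Smpd3). They were -1.10 for 2810430I11Rik and -1.07 for Gm13372, both opposite Col5a1, -1.11 for Chn1os3 (opposite Chn1), -1.10 for Ibsp and -1.13 for Col1a2.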

How the results depend on the processing

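No paired analysis was possible because the loaded NT3 and Ctrl tibiae came from separate mice. Against 161 rows called in loaded limbs (80 higher, 81 lower), 80 (31 and 49) were called with the marrow covariate, 62 of them among the 161, and 64 (35 and 29) with the animal number covariate, 60 of them among the 161, and the fit of all 16 libraries in 4 groups called 53 lower rows. The sets by animal number partly follow genotype, and the causes were not tested. Other settings gave 133 to 177 rows, and leaving out 1 library gave 119 to 201 rows, 63 to 94 higher and 56 to 107 lower. All 161 rows kept their direction in every setting that tested them (148 rows under the stricter filter), and 32 were called under all settings. Against 10 rows called for the interaction, 17 were called with no filter and 0 with no replicate block, where pairing by mouse was dropped, and leaving out 1 mouse gave 7 to 14. Signs turned in uncalled rows. The Nfkb2 difference was -0.00523 with no filter, -0.467 with the animal number covariate and -0.399 to 0.314 without single libraries, including -0.185 and -0.0549. The Ltbp2 difference was 0.342 with the marrow covariate, 0.107 with the muscle covariate and -0.279 to 0.128 without single libraries, including 0.0470 and 0.119. With the marrow covariate the values were -0.0121 for Cxcl16, 0.103 for 2810430I11Rik and 0.0140 for Chn1os3. Rabep2, itself among the rows averaged in the muscle covariate, was at 0.153 with that covariate. Cd72 was at -0.121 to 0.0402 without single libraries, the latter without Ctrl replicate 4. Low counts limited the lists: of 26 osteoblast genes 14 own rows, and of 33 B lymphoid genes 7, passed the filter. Why the remaining own rows were low was not tested.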
